A study of Mus musculus with 11 samples.

Results

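The mitochondrial chromosome of the mouse carries 37 genes, and all 37 were rows of the deposited count table, out of 49671 genes in all. They were taken by their chromosome alone: 13 genes for proteins, 2 for ribosomal RNAs (rRNAs) and 22 for transfer RNAs (tRNAs). Each of the 37 passed the filter on low counts and stood at the same position in the GENCODE M21 annotation of build GRCm38, and 35 had counts in every library. Cells were sorted from the adrenal glands of male mice of the Nestin-GFP line, whose green fluorescent protein (GFP) is driven by regulatory sequence of Nestin. Nestin is a filament protein known from progenitor cells. They were taken as GFP-positive or GFP-negative from adrenal cortex, the outer layer that makes steroid hormones, or adrenal medulla, the inner part that makes catecholamines. This gave 4 groups: GFP-positive cells of the cortex in 3 libraries, GFP-negative cells of the cortex in 3, GFP-positive cells of the medulla in 3, and GFP-negative cells of the medulla in 2.

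The labels describe 6 mice whose cortex and medulla were each pooled in 3 groups of 2, and tubes of 180 to 300 cells. The gate reads the Nestin reporter and not a cell type, and the libraries are mixtures. In cortical cells of either gate, libraries 1 and 2 came from mice of 3.5 months and library 3 from mice of 2.5 months. Medullary GFP-positive library 1 and both medullary GFP-negative libraries came from mice of 3.5 months, and medullary GFP-positive libraries 2 and 3 from mice of 2.5 months. These ages cannot be matched to 3 pools that each gave every group of cells once, so some libraries may share a pool. Since cDNA was primed on poly(A), without molecular identifiers and with no record of the strand, counting intervals would cover counting error only. Libraries are not tied to mice or pools in the labels, so n counts libraries, which may not be independent animals, and p-values measure the spread between libraries, which may be partly technical. Total counts lay between 18500690 and 29204212 per library, of which 1190885 to 4204976 fell on the mitochondrial chromosome.

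The mitochondrial chromosome is transcribed from both strands into long precursors, and most mRNAs and rRNAs are freed when the tRNAs that lie between them are cut out. Its mRNAs encode subunits of respiratory complexes I, III and IV and of the ATP synthase, its rRNAs form the core of the mitochondrial ribosome, and its tRNAs serve that ribosome. Nuclear genes supply the polymerase, the processing enzymes and the ribosomal proteins. In the adrenal cortex, mitochondria also hold the first and last enzymes of steroid synthesis.

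In both tissues, mitochondrial transcripts took a larger share of the counted RNA in the GFP-positive gate than in the other. Of all counts, 10.6%, 16.7% and 13.2% fell on the chromosome in the 3 cortical GFP-positive libraries, against 7.30%, 7.03% and 7.28% in the cortical GFP-negative ones. In the medulla the shares were 12.6%, 9.61% and 15.2% in GFP-positive libraries and 4.08% and 5.14% in GFP-negative ones. The ranges of the gates did not overlap within either tissue. Group means were 13.5% ± 3.06 and 7.20% ± 0.151 in cortical GFP-positive and GFP-negative cells (SD, n = 3 each), and 12.5% ± 2.82 (SD, n = 3) and 4.61% ± 0.753 (SD, n = 2) in medullary GFP-positive and GFP-negative cells. Within the older mice alone, the medullary values were 12.6% in the 1 GFP-positive library and 4.08% and 5.14% in the GFP-negative ones. A share in bulk samples cannot tell more mitochondrial RNA per cell from less other RNA per cell, or from a different mixture of cells.

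Marker genes of other cells moved with the gate. The summed level of 6 macrophage genes was 41.5 to 162 CPM (counts scaled to library size, with edgeR's scaling factors) in cortical GFP-positive and 1771 to 2842 CPM in cortical GFP-negative libraries. In the medulla it was 182 to 456 CPM in GFP-positive and 9265 to 9886 CPM in GFP-negative libraries. For 8 Schwann cell and glial genes the sums were 198 to 291 CPM against 2.95 to 10.8 CPM in the cortex, and 1852 to 4311 CPM against 15.3 to 24.3 CPM in the medulla, GFP-positive libraries first. Sox10 and Foxd3 were at 0 in both medullary GFP-negative libraries. Sums of 10 steroidogenic genes were 63643 to 72282 CPM in cortical GFP-positive, 36873 to 41713 CPM in cortical GFP-negative, 22983 to 40452 CPM in medullary GFP-positive and 9024 to 16602 CPM in medullary GFP-negative libraries, so transcripts of cortical cells were abundant in the dissected medulla. The chromaffin list of 10 genes ran from 8.65 to 171 CPM in cortical GFP-positive and from 0.441 to 1.57 CPM in cortical GFP-negative libraries, with Pnmt at 0 in both groups. In the medulla chromaffin sums were 7315 to 13209 CPM in GFP-positive and 6212 to 10145 CPM in GFP-negative libraries.

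Summed levels of genes tied to handling and to RNA localisation also differed between gates, though not every member did. The 8 genes that respond to dissociation summed to 1324 to 1976 CPM in cortical GFP-positive and 2536 to 3381 CPM in cortical GFP-negative libraries, and to 3514 to 4522 CPM in medullary GFP-positive and 11272 to 13321 CPM in medullary GFP-negative ones. In the cortex Atf3, Junb, Fos and Dusp1 fell, Jun rose (log2 1.26, edgeR adjusted p = 0.00211), and Hspa1a, Hspa1b and Egr1 were not called, while in the medulla all but Jun fell. The nuclear RNAs Malat1, Neat1 and Meg3 summed to 15808 to 21441 CPM in cortical GFP-positive and 6340 to 7934 CPM in cortical GFP-negative libraries, and to 12297 to 20594 CPM in medullary GFP-positive and 6377 to 7396 CPM in medullary GFP-negative ones. Malat1 and Neat1 rose in both tissues, and Meg3 was called in neither (log2 −0.40 and 0.10, edgeR adjusted p = 0.159 and 0.782). Pericyte genes, 6 in all, summed to 59.1 to 212 CPM against 1.26 to 4.74 CPM in GFP-positive and GFP-negative cortex, while their ranges overlapped in the medulla. Endothelial sums of 6 genes overlapped between gates in both tissues. Cortical GFP-positive library 1 reached 512 CPM over 3 erythroid genes, while no other library passed 1.65 CPM. The part of these differences in the mitochondrial values was not tested.

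**Figure D1:**
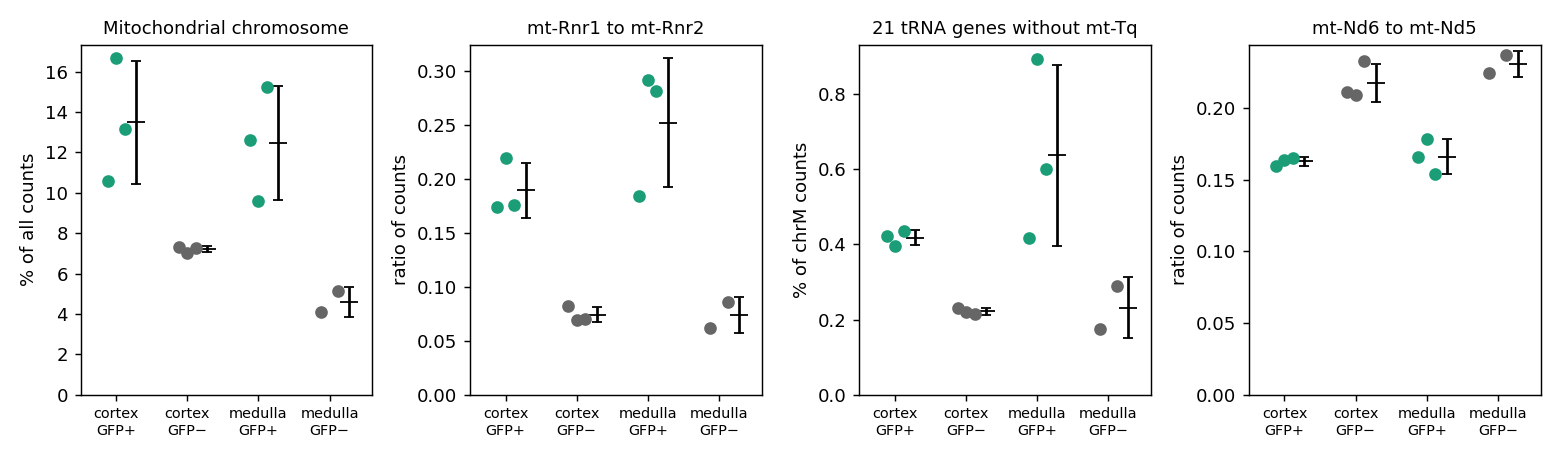
Values per library (points) with the mean and SD of each group (black): the share of all counts on the mitochondrial chromosome, the ratio of mt-Rnr1 to mt-Rnr2 counts, the share of mitochondrial counts on the 21 tRNA genes without mt-Tq, and the ratio of mt-Nd6 to mt-Nd5 counts. GFP-positive (GFP+) libraries lie above GFP-negative (GFP−) libraries of their tissue in the first 3 panels and below them in the last.

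Gene by gene, the difference went the same way for all but the tRNA gene mt-Tq, and by very different amounts. With edgeR's quasi-likelihood test on all genes (adjusted p under 0.05), 26 of the 37 genes rose in cortical GFP-positive over GFP-negative cells and none fell, against a background of 7.14% of all 20893 genes tested that rose and 7.59% that fell. In the medulla 35 of 37 rose and none fell, where 10.2% of all genes rose and 11.1% fell. The median log2 change over the 37 genes was 1.58 in the cortex and 2.06 in the medulla, beside medians over all genes of 0.03 and 0.09. The groups did not overlap for 35 of the 37 genes in the cortex and 36 of 37 in the medulla, GFP-positive higher, where 18.8% and 25.6% of all genes did so. By class, the median log2 change in the cortex was 1.18 for protein genes, 1.96 for the 2 rRNA genes and 2.58 for tRNA genes, and in the medulla 1.54, 2.35 and 3.72. Mice of 3.5 months alone gave 10 calls in the cortex, from fewer libraries, where 515 of all 21684 genes tested rose. In the medulla these mice left only 1 GFP-positive library, so that gate had no replicates and its calls are not counted here. Without medullary GFP-negative library 1, the medullary calls numbered 23.

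**Figure D2:**
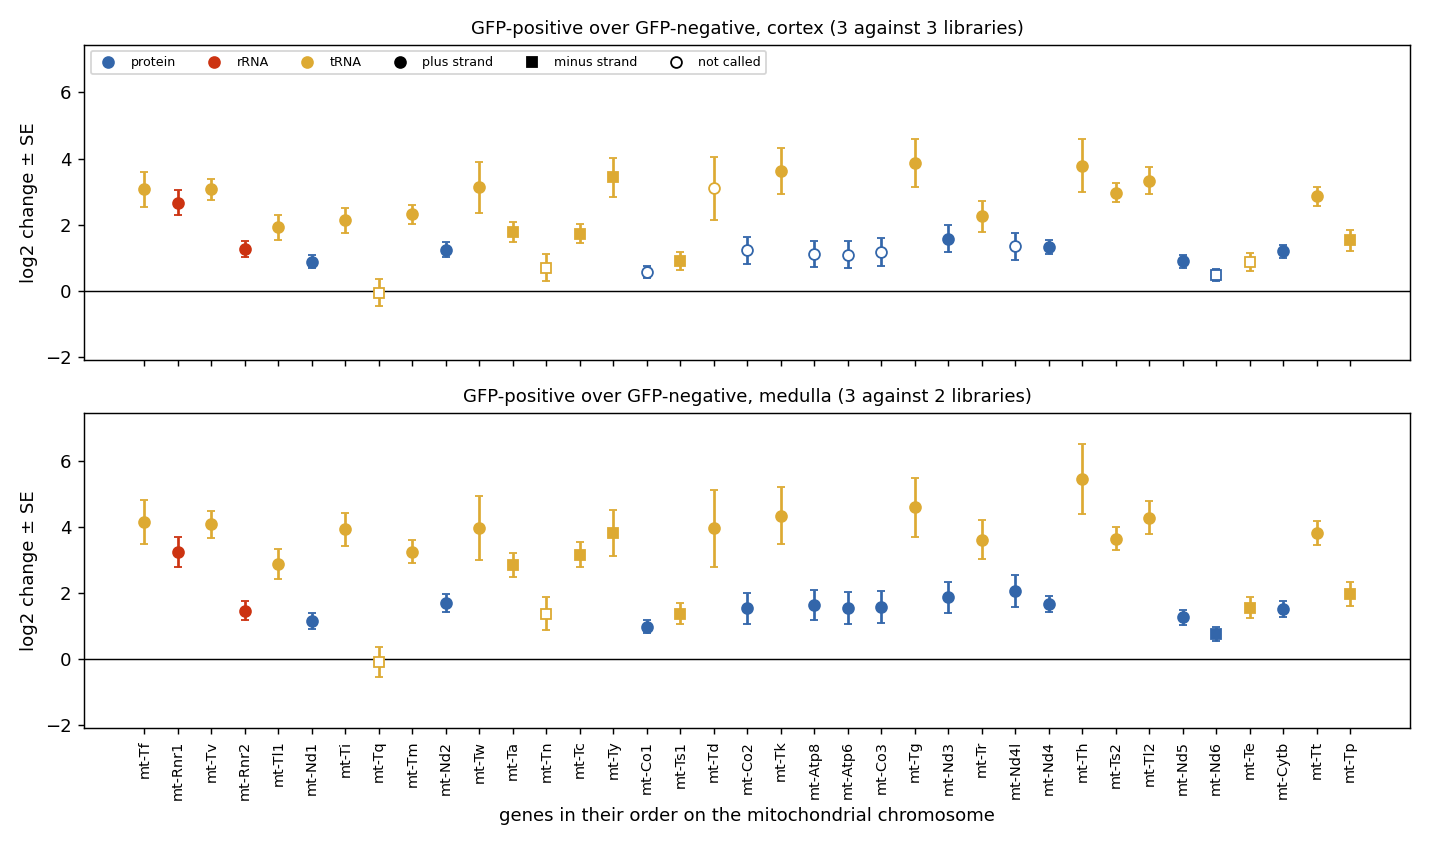
Log2 change of GFP-positive over GFP-negative cells with its SE (vertical axis) for the 37 genes in their order along the chromosome (horizontal axis), cortex above and medulla below. Colour marks the class, circles the plus and squares the minus strand, and open symbols genes that were not called. Plus-strand tRNA genes and mt-Rnr1 stand above the protein genes in both panels, and mt-Tq lies near 0.

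The protein genes of the chromosome were higher in the GFP-positive gate by moderate amounts. Of the 13, 6 rose in cortical and 13 in medullary GFP-positive cells, with log2 changes of 0.48 to 1.58 and 0.76 to 2.06. Among all genes, 7.14% rose in the cortex and 10.2% in the medulla. Cytochrome b, encoded by mt-Cytb and the only subunit of complex III from this chromosome, was the protein gene with the most counts. Its levels were 28386, 47994 and 33017 CPM in cortical GFP-positive and 18388, 15387 and 14151 CPM in cortical GFP-negative libraries, and 31528, 23983 and 34662 CPM in medullary GFP-positive and 10127 and 10936 CPM in medullary GFP-negative ones. Neither pair of groups overlapped. The log2 change was 1.19 (SE 0.201, edgeR adjusted p = 0.00351) in the cortex and 1.51 (SE 0.234, edgeR adjusted p = 0.00147) in the medulla, and both calls held when any 1 library was left out.

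Of the protein genes, 7 encode subunits of complex I, the NADH dehydrogenase. In the cortex 7.14% of all genes rose and 5 of these 7 did, and in the medulla 10.2% and all 7. mt-Nd4 had the highest level per kb among those that were called in every leave-one-out fit of both tissues, at 15001 ± 4088 CPM in cortical GFP-positive against 6030 ± 559 CPM in cortical GFP-negative cells (SD, n = 3 each). It stood at 12981 ± 3129 CPM (SD, n = 3) in medullary GFP-positive against 4094 ± 359 CPM (SD, n = 2) in medullary GFP-negative cells. Its log2 changes were 1.31 in the cortex and 1.66 in the medulla. mt-Nd2 changed by 1.25 and 1.70, mt-Nd1 by 0.88 and 1.15, mt-Nd5 by 0.90 and 1.26, and mt-Nd3 by 1.58 and 1.87, all called in both tissues (edgeR adjusted p of 0.00153 to 0.0261). mt-Nd4l changed by 1.35 in the cortex, not called (edgeR adjusted p = 0.0552), and by 2.06 in the medulla (0.0145). In the cortex the call of mt-Nd1 ended without GFP-positive library 2 or any GFP-negative library, that of mt-Nd5 without GFP-positive library 2 or GFP-negative library 1, and that of mt-Nd3 without GFP-positive library 2 or 3 or GFP-negative library 1 or 2. In the medulla the calls of mt-Nd1 and mt-Nd4l ended without GFP-negative library 1, and that of mt-Nd3 also without GFP-positive library 3.

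mt-Nd6 is the one protein gene on the minus strand of the annotation, and it changed least. It stood at 764, 1247 and 1037 CPM in cortical GFP-positive and 684, 716 and 780 CPM in cortical GFP-negative libraries, which overlapped. In the medulla it stood at 984, 828 and 1194 CPM in GFP-positive and 539 and 642 CPM in GFP-negative libraries, which did not. The log2 change was 0.48 (SE 0.188, edgeR adjusted p = 0.115) in the cortex and 0.76 (SE 0.215, edgeR adjusted p = 0.0295) in the medulla, where the call ended without GFP-positive library 1 or 3 or either GFP-negative library. Its counts relative to those of its neighbour mt-Nd5, with which it shares 14 bases on the opposite strand, were 0.160 to 0.165 in cortical GFP-positive and 0.209 to 0.233 in cortical GFP-negative libraries. In the medulla that ratio was 0.154 to 0.178 in GFP-positive and 0.225 to 0.237 in GFP-negative libraries. Without strand, reads of mt-Nd6 and of RNA from the opposite strand cannot be told apart.

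The cytochrome oxidase (complex IV) and ATP synthase genes passed the test in the medulla and not in the cortex. mt-Co1, which encodes the catalytic subunit of cytochrome oxidase, stood at 21793, 32650 and 24687 CPM in cortical GFP-positive and 17652, 16900 and 18807 CPM in cortical GFP-negative libraries. The medullary values were 23701, 16210 and 24136 CPM in GFP-positive and 10388 and 11371 CPM in GFP-negative libraries, and neither pair of groups overlapped. The log2 change was 0.57 (SE 0.175, edgeR adjusted p = 0.0546) in the cortex and 0.97 (SE 0.201, edgeR adjusted p = 0.00676) in the medulla. Cortical log2 changes were 1.22 for mt-Co2, 1.18 for mt-Co3, 1.12 for mt-Atp8 and 1.09 for mt-Atp6 (edgeR adjusted p of 0.0690 to 0.107). The medullary ones were 1.53, 1.57, 1.62 and 1.54 (0.0285 to 0.0470). All 4 medullary calls ended without GFP-negative library 1 or GFP-positive library 3, and those of mt-Co2, mt-Co3 and mt-Atp6 also without GFP-positive library 1. An effect called in the medulla and not in the cortex is not thereby shown to differ, and the interaction of gate and tissue called none of the 37 genes.

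These 4 genes belong to a run of 6, from mt-Co2 to mt-Nd4l, whose level per kb was far below that of the other 7 protein genes. The mean over the 4 groups was 201 to 1360 CPM per kb, here without scaling factors, for the 6 genes, with a median of 643, and 1603 to 20194 with a median of 6869 for the other 7, a ratio of medians of 10.7. The genome holds a near-identical copy of this stretch on chromosome 1, annotated as 7 pseudogenes between bases 24611535 and 24616197. The deposited counting assigned counts to these pseudogenes, which does not show that the reads came from them. Over all libraries, Gm28661 had 71213 counts beside 176681 for mt-Co2, Gm10925 had 116210 beside 247854 for mt-Atp6, Gm28437 had 55290 beside 114894 for mt-Co3 and Gm10222 had 27450 beside 37786 for mt-Nd4l. The matched stretches of these 4 pairs, 681, 678, 783 and 294 bases, were identical. mt-Nd3 was the exception to the order, with 18490 counts beside 66859 for its copy Gm28438. The copies covered 876 of 1378 bases of mt-Nd4 without a mismatch (Gm28439), 483 of 1545 bases of mt-Co1 with 1 mismatch (Gm29216) and, where it overlaps mt-Atp6, 43 of 204 bases of mt-Atp8. No other gene of the chromosome matched any annotated transcript of another chromosome at 98% identity or more. Unannotated bases, such as those between the 7 pseudogenes, were not searched, so further nuclear copies may exist.

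mt-Nd3 and its copy are shown because 1 base, in capitals, tells 345 aligned bases apart, from the third base of both annotated genes (GRCm38, GENCODE M21 transcripts, 5′ to 3′).
mt-Nd3 (chrM:9459-9501, plus strand): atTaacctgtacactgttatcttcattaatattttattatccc
Gm28438 (chr1:24613077-24613119, minus strand): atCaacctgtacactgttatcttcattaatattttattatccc
How the authors' counting shared reads between such pairs is not given in the sources used here. Levels and changes of the 7 pseudogenes, of the 6 genes, and in part of mt-Nd4 and mt-Co1, are therefore uncertain. The tRNA genes mt-Ts1, mt-Td, mt-Tk, mt-Tg and mt-Tr lie among these mitochondrial genes. Copies of them between the pseudogenes were not searched for, so their levels may be uncertain too. Of the 7 pseudogenes, 3 rose in cortical GFP-positive cells, where 7.14% of all genes rose, and 7 in medullary ones, where 10.2% did, with median log2 changes of 1.20 and 1.69. Gm28437, Gm10925, Gm28661 and Gm29216 did not pass in the cortex, at log2 values of 0.52 to 1.20 (edgeR adjusted p of 0.0517 to 0.266). Gm28438 changed by 1.61 (SE 0.287, edgeR adjusted p = 0.00463) in the cortex and by 1.82 (SE 0.335, edgeR adjusted p = 0.00378) in the medulla, close to the 1.58 and 1.87 of mt-Nd3. The 6 genes also varied within groups: they held 2.29% to 4.01% of the protein gene counts in cortical GFP-positive, 1.85% to 3.11% in cortical GFP-negative, 2.63% to 3.94% in medullary GFP-positive, and 1.44% and 3.82% in the 2 medullary GFP-negative libraries.

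The rRNA genes differed between gates by unequal amounts. mt-Rnr1, which encodes the rRNA of the small ribosomal subunit, stood at 1922, 4846 and 2669 CPM in cortical GFP-positive and 484, 478 and 531 CPM in cortical GFP-negative libraries. Its medullary values were 2737, 4368 and 6253 CPM in GFP-positive and 360 and 585 CPM in GFP-negative libraries, so the lowest GFP-positive value was several times the highest GFP-negative one in both tissues. The log2 change was 2.66 (SE 0.382, edgeR adjusted p = 0.00154) in the cortex and 3.24 (SE 0.463, edgeR adjusted p = 0.000975) in the medulla, a 6.32-fold and a 9.43-fold difference. mt-Rnr2, the rRNA of the large subunit, stood at 11078, 22163 and 15219 CPM against 5908, 6911 and 7528 CPM in GFP-positive and GFP-negative cortex. In the medulla it stood at 14919, 15020 and 22232 CPM against 5804 and 6843 CPM in GFP-positive and GFP-negative cells. Its log2 changes, 1.25 (SE 0.244, edgeR adjusted p = 0.00728) in the cortex and 1.46 (SE 0.283, edgeR adjusted p = 0.00486) in the medulla, were within the range of the protein genes. Both genes were called in every leave-one-out fit of both tissues.

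Both rRNAs come from the same strand and lie with only mt-Tv between them, and their ratio was higher in the GFP-positive gate. Counts of mt-Rnr1 were 0.173, 0.219 and 0.175 of those of mt-Rnr2 in cortical GFP-positive and 0.0819, 0.0692 and 0.0706 in cortical GFP-negative libraries. In the medulla they were 0.183, 0.291 and 0.281 in GFP-positive and 0.0620 and 0.0854 in GFP-negative libraries. The 2 younger medullary GFP-positive libraries were the highest of all 11, but the older one still lay above both GFP-negative ones. Ribosomal RNA is recovered only in part by priming on poly(A), so the ratio is one of captured RNA.

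The tRNA genes showed the largest changes, although they held only 0.405% to 1.12% of mitochondrial counts per library. In the cortex 18 of 22 rose and in the medulla 20 of 22, with none lower, where 7.14% and 10.2% of all genes rose. The tRNA genes annotated on the plus strand changed most: 13 of 14 rose in the cortex with a median log2 change of 3.07, and 14 of 14 in the medulla with a median of 3.96. Of the 8 on the minus strand, 5 and 6 rose, with medians of 1.21 and 1.76. With no strand recorded in the libraries, the strand here is that of the annotated gene and not of the counted RNA. A mature tRNA is short and has no long poly(A) tail, and these counts can come from precursors and partly processed transcripts as well as tRNAs, and the libraries do not tell them apart.

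The sequences of 4 plus-strand tRNAs whose calls held in every alternative run are shown beside those of 2 minus-strand tRNAs called in neither tissue. The anticodon is in capitals (GRCm38, GENCODE M21 transcripts, DNA letters, 5′ to 3′ of the tRNA). Each anticodon was located in the middle of a 7-base loop whose 5-base stem pairs best.
mt-Tv (valine, chrM:1025-1093, plus strand): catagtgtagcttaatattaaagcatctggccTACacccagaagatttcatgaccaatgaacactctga
mt-Tt (threonine, chrM:15289-15355, plus strand): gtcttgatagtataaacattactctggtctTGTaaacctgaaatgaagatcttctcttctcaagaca
mt-Ts2 (serine, chrM:11613-11671, plus strand): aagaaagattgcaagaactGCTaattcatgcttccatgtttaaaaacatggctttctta
mt-Tl2 (leucine, chrM:11671-11741, plus strand): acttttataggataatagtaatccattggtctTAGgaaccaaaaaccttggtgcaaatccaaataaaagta
mt-Tq (glutamine, chrM:3772-3842, minus strand): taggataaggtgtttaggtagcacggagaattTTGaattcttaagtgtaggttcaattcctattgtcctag
mt-Tn (asparagine, chrM:5089-5159, minus strand): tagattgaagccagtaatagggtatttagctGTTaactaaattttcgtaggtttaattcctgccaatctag
The 4 plus-strand tRNAs have a longest run of 3, 3, 5 and 5 adenines, in the order shown, and mt-Tq and mt-Tn one of 2 and 3. These 6 were picked by their calls, and the longest runs among all 22 tRNAs were 8 in mt-Tr and 6 in mt-Th. A link between runs and changes was not tested.

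mt-Tv, the valine tRNA that lies between the 2 rRNA genes, stood at 83.3, 122 and 92.9 CPM in cortical GFP-positive and 13.2, 11.5 and 10.9 CPM in cortical GFP-negative libraries. In the medulla it stood at 94.6, 161 and 173 CPM in GFP-positive and 5.30 and 11.7 CPM in GFP-negative libraries. The log2 changes, 3.07 (SE 0.323, edgeR adjusted p = 0.000351) and 4.08 (SE 0.403, edgeR adjusted p = 0.000132), exceed those of both rRNAs beside it. The threonine tRNA mt-Tt stood at 13.5, 17.4 and 16.8 CPM against 2.28, 2.09 and 2.21 CPM in GFP-positive and GFP-negative cortex. In the medulla it stood at 21.5, 30.1 and 27.6 CPM against 1.24 and 2.52 CPM in GFP-positive and GFP-negative cells. Its log2 changes were 2.86 and 3.81 (edgeR adjusted p = 0.000313 and 0.000108). mt-Ts2, the serine tRNA that lacks a D arm in mammals, changed by 2.96 and 3.64, and its neighbour mt-Tl2 by 3.33 and 4.28. Their gates were apart in both tissues.

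Among the tRNAs with few counts the estimates were coarse. The histidine tRNA mt-Th had the largest medullary change, 5.44 (SE 1.06, edgeR adjusted p = 0.00500), with 54, 143 and 112 counts in GFP-positive and 0 and 5 counts in GFP-negative libraries. Its cortical change was 3.79 (SE 0.811, edgeR adjusted p = 0.0118). mt-Tg, mt-Tk, mt-Td and mt-Tw, with 137 to 501 counts each over all libraries, changed by 3.10 to 3.87 in the cortex and 3.96 to 4.59 in the medulla. Of these, mt-Td was not called in the cortex (edgeR adjusted p = 0.0541), where its highest GFP-negative count was 6. Its medullary call (0.0353) held only when GFP-negative library 2 was the library left out, while the call of mt-Tw ended in the medulla without either GFP-negative library and in the cortex without GFP-positive library 2 or 3 or GFP-negative library 1 or 3. The remaining called plus-strand tRNAs, mt-Tf, mt-Tl1, mt-Ti, mt-Tm and mt-Tr, changed by 1.91 to 3.07 in the cortex and 2.88 to 4.14 in the medulla and were called in every leave-one-out fit.

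Minus-strand tRNAs fell into several kinds. mt-Ty changed by 3.43 in the cortex and 3.80 in the medulla, as much as the plus-strand ones, from 522 counts in all. mt-Ta and mt-Tc changed by 1.78 and 1.73 in the cortex and 2.85 and 3.16 in the medulla. mt-Tp, second among the tRNAs in total counts, stood at 186 ± 42.7 CPM against 64.6 ± 4.42 CPM in GFP-positive and GFP-negative cortex (log2 1.52, edgeR adjusted p = 0.00895) and at 202 ± 62.2 CPM against 51.6 ± 25.9 CPM in GFP-positive and GFP-negative medulla (log2 1.97, edgeR adjusted p = 0.00386). mt-Ts1 and mt-Te changed by 0.90 and 0.86 in the cortex and 1.37 and 1.55 in the medulla. Their medullary calls ended without GFP-negative library 1, the cortical call of mt-Ts1 (edgeR adjusted p = 0.0471) ended in every leave-one-out fit, and mt-Te was not called in the cortex (0.0598). mt-Tn stood at 1.91 ± 0.283 against 1.17 ± 0.0994 CPM in GFP-positive and GFP-negative cortex. In the medulla it stood at 1.65 ± 0.156 against 0.633 ± 0.0341 CPM in GFP-positive and GFP-negative cells. It passed the test in neither tissue (edgeR adjusted p = 0.293 and 0.0708), from 366 counts in all. Its GFP-positive libraries still lay above its GFP-negative ones in both tissues.

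mt-Tq, the glutamine tRNA, was the tRNA with the most counts, and the 1 gene of the chromosome whose gates overlapped in both tissues. It stood at 234, 182 and 323 CPM in cortical GFP-positive and 223, 209 and 334 CPM in cortical GFP-negative libraries. In the medulla it stood at 229, 216 and 230 CPM in GFP-positive and 100 and 377 CPM in GFP-negative libraries. Both pairs of groups overlapped, and the log2 changes were −0.05 (SE 0.400, edgeR adjusted p = 0.961) and −0.09 (SE 0.446, edgeR adjusted p = 0.922). These errors are wide, and the missing call does not show that the levels were equal. The sign depended on the fit: the cortical value was 0.13 without GFP-positive library 2 and 0.19 without GFP-negative library 3, and the medullary one 1.16 without GFP-negative library 2 and 0.23 with limma voom. mt-Tq made up 20.3% to 36.0% of tRNA counts in cortical GFP-positive and 57.3% to 69.2% in cortical GFP-negative libraries, and 20.2% to 30.6% in medullary GFP-positive and 56.8% and 71.8% in medullary GFP-negative ones. The gene lies on the minus strand between mt-Ti, with which it shares 3 bases, and mt-Tm, both on the plus strand, and without strand its reads cannot be told from RNA of the other strand.

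**Figure D3:**
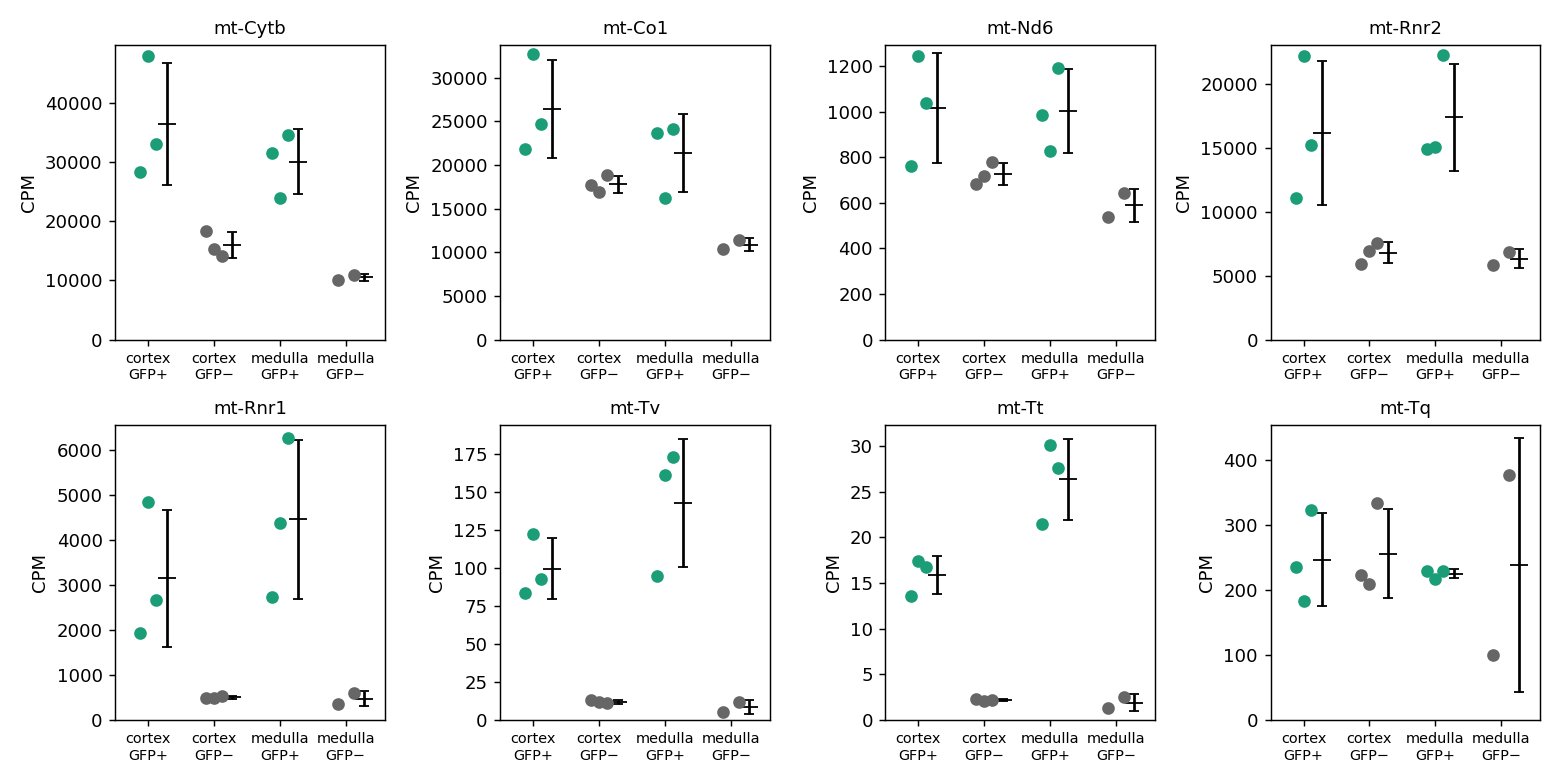
Levels in CPM per library (points) with the mean and SD of each group (black) for 3 protein genes, both rRNA genes and 3 tRNA genes. mt-Rnr1, mt-Tv and mt-Tt separate the gates (GFP+ and GFP−) by several times, mt-Cytb, mt-Co1 and mt-Rnr2 by less, mt-Nd6 overlaps in the cortex, and mt-Tq overlaps in both tissues.

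A second fit asked which genes moved more than the chromosome as a whole, with each library scaled to its summed mitochondrial counts. On this scale the median of all genes shifted to −0.90 in the cortex and −1.25 in the medulla, and adjustment over all genes is lenient since many of them are called. In the cortex 11 of the 37 genes rose relative to the mitochondrial total and none fell, where 2.71% of all genes rose and 35.4% fell. They were mt-Rnr1, at a log2 value of 1.59 (SE 0.302, edgeR adjusted p = 0.00343), and the tRNAs mt-Tf, mt-Tv, mt-Tm, mt-Ty, mt-Tk, mt-Tg, mt-Th, mt-Ts2, mt-Tl2 and mt-Tt, at 1.32 to 2.83. In the medulla 16 rose, against 3.22% of all genes: mt-Rnr1 at 1.90 (SE 0.354, edgeR adjusted p = 0.00141) and 15 tRNAs at 1.55 to 4.21, the 10 of the cortex with mt-Tl1, mt-Ti, mt-Ta, mt-Tc and mt-Tr. In the medulla 2 genes fell, mt-Tq by 1.36 (SE 0.473, edgeR adjusted p = 0.0315) and mt-Nd6 by 0.60 (SE 0.217, edgeR adjusted p = 0.0368), beside 47.4% of all genes that fell on this scale. No protein gene rose relative to the total in either tissue. Their log2 values lay between −0.53 and 0.60 in the cortex and between −0.60 and 0.71 in the medulla. Protein genes held 78.6% to 90.5% of mitochondrial counts per library, so they largely set this scale, which holds them near 0 as a whole.

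The relative calls rested on different numbers of libraries. mt-Rnr1, mt-Tv, mt-Tm, mt-Ts2, mt-Tl2 and mt-Tt were called in every leave-one-out fit of both tissues. In the cortex 6 calls were left without GFP-negative library 3. In the medulla 10 genes rose and 1 fell without GFP-negative library 1. The medullary fall of mt-Tq ended without GFP-positive library 1 or 3 or GFP-negative library 2, and that of mt-Nd6 in 4 of 5 leave-one-out fits and when the 13 protein genes alone set the scale. Counts of the 21 tRNA genes other than mt-Tq were 0.423%, 0.396% and 0.435% of mitochondrial counts in cortical GFP-positive and 0.231%, 0.221% and 0.214% in cortical GFP-negative libraries. In the medulla these shares were 0.417%, 0.894% and 0.600% in GFP-positive and 0.175% and 0.289% in GFP-negative libraries.

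**Figure D4:**
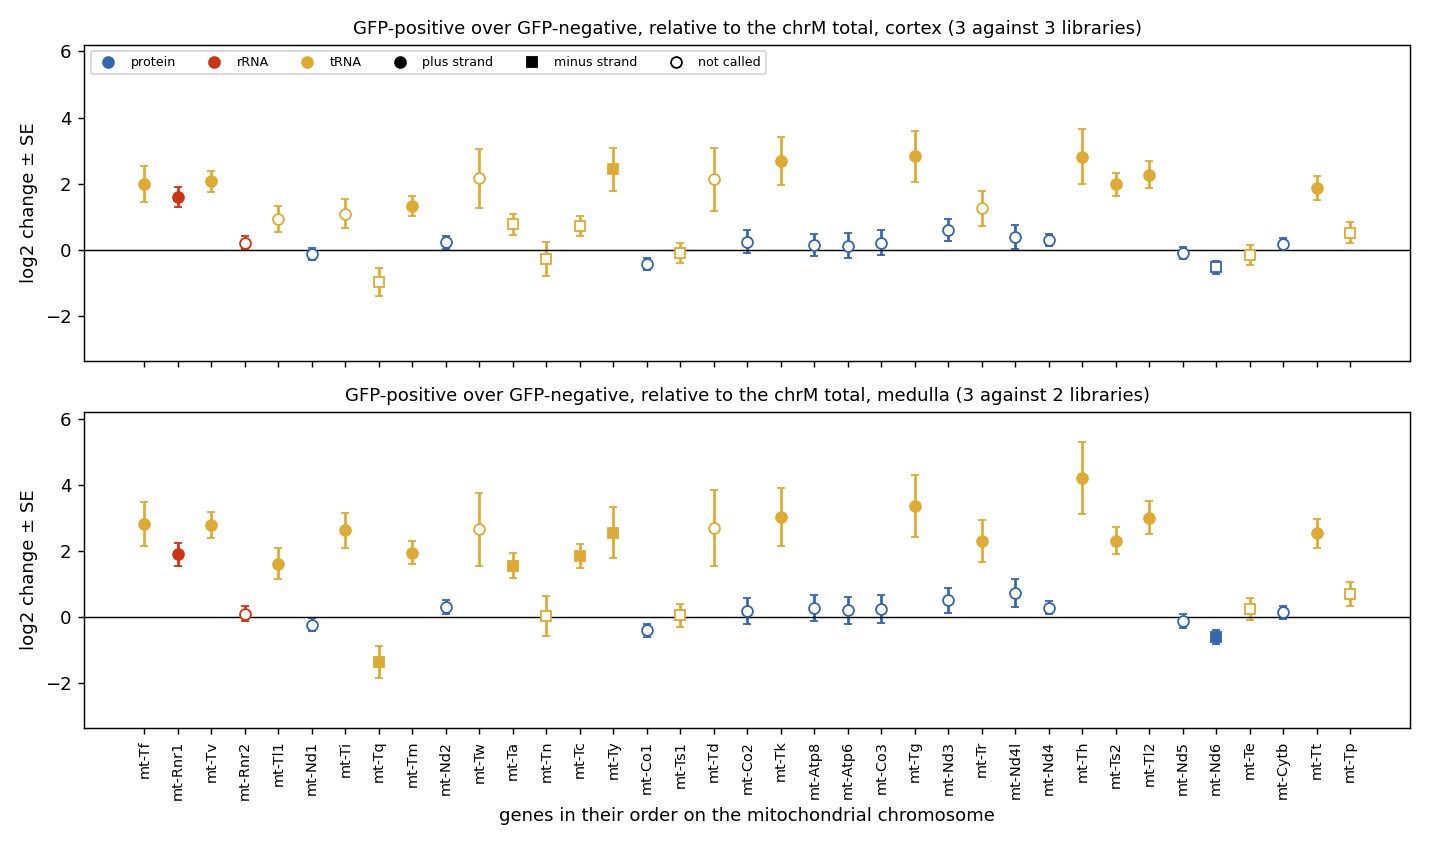
Log2 change of GFP-positive over GFP-negative cells with its SE when each library is scaled to its mitochondrial total, for the 37 genes in chromosomal order, cortex above and medulla below, with symbols as for the unscaled changes. mt-Rnr1 and plus-strand tRNAs remain above 0, protein genes and mt-Rnr2 lie around 0, and mt-Tq lies below it.

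Between tissues few genes of the chromosome were called within a gate, although all 37 had higher mean estimates in cortical than in medullary GFP-negative cells. Cortical over medullary GFP-positive cells gave no call among the 37 genes with edgeR (2 had an unadjusted p under 0.05), where 15.5% of all genes were called. DESeq2 and limma voom each called 1 tRNA lower in the cortex, mt-Tt (adjusted p = 0.0306 and 0.0304). Log2 differences lay between −0.04 and 0.40 for protein genes and between −0.85 and 0.47 for tRNA genes. Cortical over medullary GFP-negative cells gave 1 call, mt-Co1, at 17786 ± 960 CPM (SD, n = 3) in cortical and 10880 ± 695 CPM (SD, n = 2) in medullary GFP-negative cells (log2 0.71, SE 0.199, edgeR adjusted p = 0.0333), where 8.06% of all genes were called higher. The call ended in each of the 5 leave-one-out fits. The log2 differences ran there from 0.04 to 1.04 with a median of 0.49, the mitochondrial shares of cortical and medullary GFP-negative libraries did not overlap, and the groups did not overlap for 15, where 23.4% of all genes were apart with the cortex higher. These comparisons share libraries with those between gates.

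The interaction of gate and tissue, the cortical minus the medullary change, called none of the 37 genes with edgeR (5 had an unadjusted p under 0.05) or voom and 1 with DESeq2, mt-Tc (adjusted p = 0.0454), where edgeR called 1.61% of all genes. Interaction values were negative for 36 of 37 genes, with a median of −0.68 against −0.02 over all genes, and mt-Tq at 0.03 was the exception. The medullary GFP-negative group has 2 libraries and no younger mice, so age and gate are partly confounded in this comparison.

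In the cortex few nuclear genes that serve the chromosome were called between gates, and in the medulla each list had more calls. List by list, the called shares lay below those of all genes in the cortex, and on either side of them in the medulla. Of all genes, 7.14% rose and 7.59% fell in the cortex, and 10.2% rose and 11.1% fell in the medulla. Of 16 genes of mitochondrial transcription and DNA maintenance, none passed the test between gates in the cortex (edgeR), and 2 rose and 2 fell in the medulla. The median log2 change was 0.0032 in the cortex and 0.06 in the medulla. Top1mt, the mitochondrial topoisomerase, stood at 14.6 ± 2.05 against 5.57 ± 2.36 CPM in GFP-positive and GFP-negative medulla (log2 1.39, edgeR adjusted p = 0.0254), Mterf2, a factor of the mitochondrial termination factor family, at 14.4 ± 3.40 against 5.55 ± 1.34 CPM (log2 1.38), and Polg2, the accessory subunit of the mitochondrial DNA polymerase, at 5.98 ± 1.94 against 16.1 ± 5.15 CPM (log2 −1.43). Between tissues, Twnk, the mitochondrial helicase, stood at 29.1 ± 2.85 CPM in cortical and 12.1 ± 4.10 CPM in medullary GFP-positive cells (log2 1.26, edgeR adjusted p = 0.0152), and Polg, the catalytic polymerase subunit, at 22.6 ± 3.11 CPM in cortical and 37.6 ± 2.72 CPM in medullary GFP-negative cells (log2 −0.74).

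Of 24 tested genes that process, modify or degrade mitochondrial RNA, 1 rose and 1 fell in cortical GFP-positive over GFP-negative cells, and 3 rose and 4 fell in the medulla, beside 7.14% and 7.59% of all genes that rose and fell in the cortex and 10.2% and 11.1% in the medulla. The median log2 changes were −0.15 and −0.29. Pus1, a pseudouridine synthase, stood at 24.2 ± 2.13 against 12.7 ± 1.83 CPM in GFP-positive and GFP-negative cortex (log2 0.93, edgeR adjusted p = 0.0303), and Rexo2, an exoribonuclease, fell by 0.47 on the log2 scale (0.0275). Mrm1, an rRNA methyltransferase of mitochondria, fell by 1.80 on the log2 scale in the medulla (edgeR adjusted p = 0.00296). Between tissues, 8 of the 24 were higher in cortex than in medulla within each gate and none was lower. Of all genes, 6.04% were higher and 9.45% lower in cortical than in medullary GFP-positive cells, and 8.06% were higher and 10.6% lower in GFP-negative cells. Elac2, which cuts the 3′ ends of tRNAs from precursors, stood at 39.5 ± 6.60 CPM in cortical and 14.8 ± 2.13 CPM in medullary GFP-positive cells (log2 1.42, edgeR adjusted p = 0.000788).

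Of 23 genes of mitochondrial translation, none rose and 1 fell in the cortex, and 1 rose and 2 fell in the medulla. Among all genes, 7.14% rose and 7.59% fell in the cortex, and 10.2% rose and 11.1% fell in the medulla. Mtif3, an initiation factor, was the gene that fell in both, to 19.4 ± 2.20 CPM in cortical GFP-positive against 39.6 ± 7.51 CPM in cortical GFP-negative cells and to 14.2 ± 2.93 CPM in medullary GFP-positive against 25.3 ± 1.17 CPM in medullary GFP-negative cells. Of 24 nuclear genes for general mitochondrial proteins and biogenesis factors, none rose and 1 fell in the cortex, and 1 rose and 1 fell in the medulla, with medians of −0.12 and −0.0022. Between tissues, 9 translation genes and 11 general mitochondrial genes were higher in cortical than in medullary GFP-positive cells, and 10 and 12 in GFP-negative cells, with none lower in either gate, beside 6.04% of all genes higher in GFP-positive and 8.06% in GFP-negative cells. Tsfm, a mitochondrial elongation factor, differed by 0.78 on the log2 scale between cortical and medullary GFP-positive cells (edgeR adjusted p = 0.0181), and stood at 99.6 ± 12.2 CPM in cortical and 45.5 ± 12.2 CPM in medullary GFP-negative cells.

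The authors' deposited tables tested a stricter question, in that their adjusted p-values behave as if each gene had to differ by more than 1 log2 unit. In the authors' deposited table for the cortex, mt-Rnr1 and 10 tRNA genes had an adjusted p under 0.05, all higher in GFP-positive cells, and in the authors' deposited table for the medulla mt-Rnr1 and 16 tRNA genes did. No protein gene did so in the authors' deposited table for either tissue, where protein gene log2 fold changes were 0.47 to 1.53 in the cortex and 0.73 to 1.95 in the medulla. None of the 37 genes did in the authors' deposited table of cortical against medullary GFP-positive cells. The share of all genes that did so in these deposited tables was not computed, so these counts stand without a background.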

How the data were processed

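The authors deposited 1 table of raw read counts per gene for the 11 libraries and tables of their own comparisons with log2 fold changes and adjusted p-values. The build mm10 and the tools GSNAP, featureCounts 1.6.0, bcl2fastq 2.19.1, DESeq and DESeq2 1.18.1 come from the submitters' processing notes, which give no roles. Another 17 per-library columns of normalized values were not used. The 92 spike-in sequences, with 10 counts in all, were left out, and 34475 of 49671 genes had a count. A floor of 3 counts was 0.103 to 0.162 CPM.

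Genes were filtered by group with edgeR 4.0.16 (R 4.3.3) and scaled by the trimmed mean of M values, with factors of 0.925 to 1.046. One quasi-likelihood fit held all 11 libraries (7 residual degrees of freedom, common biological coefficient of variation 0.479), and p-values were adjusted by Benjamini-Hochberg over all 20893 genes tested, with a threshold of 0.05. A second fit took the summed mitochondrial counts as library size. SEs are the absolute log2 change over the square root of F. Shares and ratios carry no test. Alternatives used DESeq2 1.42.0, limma 3.58.1 (voom), total counts, scaling without the mitochondrial chromosome, no filter, a replicate block, age as a factor, older mice, 2 groups alone, and each library left out. The fit was tested on simulated counts. Sequences come from GENCODE M21 transcripts, compared with BLAST+ 2.17.0 at 98% identity or more, and tables were made in Python 3.11.15 with pandas 2.3.3.

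All 13 protein and both rRNA genes are named, tRNA genes where called or among the 5 with most counts (the rest were added to show their range), and at most 3 called genes per nuclear list and comparison, those with the largest change. The members and lists were chosen with earlier results of these data known. Libraries with equal numbers were not treated as pairs: the correlations of their deviations, −0.0085 to 0.0782, stayed under the bound of 0.1, which does not show that they come from different animals. Libraries of a group differed by 27.0 to 94.1 times counting noise (chi-square per degree of freedom), so none was counted as a copy of another.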

Additional observations from a re-analysis of the deposited data

How the results depend on the processing

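Calls among the 37 genes numbered 21 to 26 in the cortex and 23 to 34 in the medulla when 1 library was left out, 23 being without medullary GFP-negative library 1. In mice of 3.5 months they numbered 10 in the cortex, while the medulla kept only 1 GFP-positive library and its calls are not counted. In the cortex of these mice 515 of all 21684 genes tested rose, against 1492 of 20893 in the main fit. With the replicate block, for numbers not shown to pair, calls were 25 in the cortex, 30 in the medulla, 1 between GFP-positive tissues (mt-Tl2), 1 between GFP-negative tissues (mt-Tc in place of mt-Co1) and 0 for the interaction; on the relative scale they were 11 in the cortex and 16 in the medulla. Between GFP-positive tissues DESeq2 and voom gave 1 call each. Between GFP-negative tissues DESeq2 gave 3, total counts 5, voom 2, the 2 groups alone 5, older mice 0 and leaving out 1 library 0 to 2, against 1. Calls over all genes moved with these settings too. The main fit called 1683 of 20893 genes higher in cortical than in medullary GFP-negative cells. DESeq2 called 2208 of 18808, total counts 2280 of 20893 and voom 2062 of 20893. The 2 groups alone called 1510 of 18428 and older mice 707 of 21684. DESeq2 gave 1 interaction call. On the relative scale, leaving out 1 library gave 6 to 11 calls in the cortex, 11 to 19 in the medulla, and 0 to 1 between GFP-positive tissues (mt-Rnr1, without medullary GFP-positive library 1).

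Without the 100 top nuclear genes in the total, the mitochondrial share was 17.0% in cortical GFP-positive, 8.97% in cortical GFP-negative and 6.06% in medullary GFP-negative cells, and the protein genes alone gave 6.41% in cortical GFP-negative cells. The order of the gates was kept.

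Of the values for single genes, 1459 kept their side of the threshold and direction, 141 were no longer called, 29 became called and 20 changed sign, none of them a called change. Leaving out 1 library, mt-Tq lay between −0.29 and 0.19 in the cortex and between −0.74 and 1.16 in the medulla, where voom gave 0.23; it was positive without cortical GFP-positive library 2 (0.13), cortical GFP-negative library 3 or medullary GFP-negative library 2. The other sign changes were on the relative scale. There the cortical range was −0.19 to 0.0022 for mt-Ts1, −0.0057 to 0.44 for mt-Co2, −0.071 to 0.30 for mt-Atp8, −0.11 to 0.32 for mt-Atp6 and −0.032 to 0.38 for mt-Co3. These 4 protein genes were below 0 without GFP-positive library 3, and mt-Atp8 and mt-Atp6 also without GFP-negative library 2. The medullary range was −0.14 to 0.21 for mt-Tn, −0.22 to 0.37 for mt-Ts1, −0.041 to 0.45 for mt-Te, −0.33 to 0.98 for mt-Co2, −0.22 to 1.03 for mt-Atp8, −0.36 to 1.10 for mt-Atp6 and −0.33 to 1.14 for mt-Co3. These 4 protein genes were below 0 without GFP-negative library 1. The cause was not tested. Depth limits the tRNA genes most, where mt-Tw had 137 counts in all.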
